A study of Mus musculus with 4 samples.

Results

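Aminoacyl-tRNA synthetases are the enzymes that join each amino acid to its tRNA, and 41 genes for these enzymes and their scaffold proteins were followed here in mouse embryonic stem cells (ESCs) supplemented with lactate. The genes were taken by name, from the symbols that the deposited tables attach to the Ensembl identifiers, and they are 41 of the 55335 genes in the count table. They comprise 20 genes for cytosolic synthetases, 17 for mitochondrial synthetases, the threonyl-tRNA synthetase paralog Tarsl2, and 3 scaffold genes, Aimp1, Aimp2 and Eef1e1. A name ending in 2 marks a mitochondrial enzyme in most cases, and 19 of the genes have such a name. Aimp2 and Tarsl2 code for cytosolic proteins in spite of theirs and were described apart.

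The RNA-seq libraries came from the mouse ESC line AB2.2, cultured on mouse embryonic fibroblast (MEF) feeders in medium with fetal bovine serum, leukemia inhibitory factor, CHIR99021 and PD0325901, an inhibitor each of GSK3 and of MEK. There were 2 control libraries and 2 libraries of cells given 50 mM lactate for 24 h, in the same medium. Each group is 1 cell line, the RNA can include that of feeder cells, and the labels do not say whether the libraries of a group came from separate cultures, so p-values measure only the spread between these libraries, which may be technical. The lactate salt or acid used and its effect on the pH or osmolarity of the medium are not given in the sources used here.

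Reads counted on genes numbered between 18067562 and 19077885 per library. Transcripts of the mitochondrial genome held 5.48% and 5.72% of these reads in replicate 1 of control and lactate, and 2.43% and 2.82% in replicate 2. All 8 markers of pluripotent cells were expressed. Their summed TPM (a level scaled to gene length and library) was 5323 and 7736 in control cells and 6102 and 9799 with lactate. A single marker held 3611 TPM in the control mean. Of the 8, 6 had a log2 fold change above 0 and 2 below, with a median of 0.22. Without overlap, Sox2 (0.56), Zfp42 (0.52) and Klf4 (0.39) were higher and Esrrb (-0.14) was lower. Groups overlapped for Pou5f1 (-0.40), Dppa5a (0.36), Nanog (0.08) and Tfcp2l1 (0.02). All 12 markers of feeder fibroblasts were measured too, none was at 0 in the control mean, and their sum was 893 and 979 TPM in control cells and 1231 and 1054 TPM with lactate. Most of this sum was Fn1, with a log2 fold change of 0.38. By marker the list had 6 above 0 and 6 below, with a median of 0.03. Without overlap, Twist2 (0.63), Pdgfrb (0.56) and Fn1 were higher and Col3a1 (-0.90) was lower. Groups overlapped for the collagen genes Col1a2 (-0.56) and Col1a1 (-0.19). The part of feeder RNA in the results below was not tested. In RNA from whole cultures, fewer cells of a type and less RNA per cell cannot be told apart.

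Most amino acids have 1 synthetase for the cytosol and another, coded by a separate nuclear gene, for the mitochondrion, which translates the few proteins of its own genome. Lysyl- and glycyl-tRNA synthetase are exceptions, since Kars and Gars each code for both forms, and no mitochondrial glutaminyl-tRNA synthetase gene exists, because mitochondria make that charged tRNA by another route. In the cytosol, 8 of the genes code for synthetases that are held with the 3 scaffold proteins in the multisynthetase complex. Transcription of many cytosolic synthetase genes is known to be raised by ATF4, the transcription factor of the amino acid and integrated stress responses, whereas mitochondrial synthetase genes are mostly regarded as part of the machinery of mitochondrial translation.

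The 2 classes differed widely in level. In control cells, cytosolic synthetase genes ranged from 64.8 TPM for Wars, which charges tryptophan, to 319 TPM for Kars, with a median of 139.5 TPM. Mitochondrial synthetase genes ranged from 3.02 TPM for Mars2 (methionine) to 55.9 TPM for Tars2 (threonine), with a median of 21.4 TPM. These ranges of control means did not overlap. Tarsl2 had a level of the mitochondrial kind, 6.45 TPM ± 0.55 (SD, n = 2), and the scaffold genes had 48.4 TPM for Eef1e1, 106 TPM for Aimp2 and 176.7 TPM for Aimp1. Read counts per library were between 1644 and 15033 for the cytosolic and between 203 and 2739 for the mitochondrial genes.

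**Figure D1:**
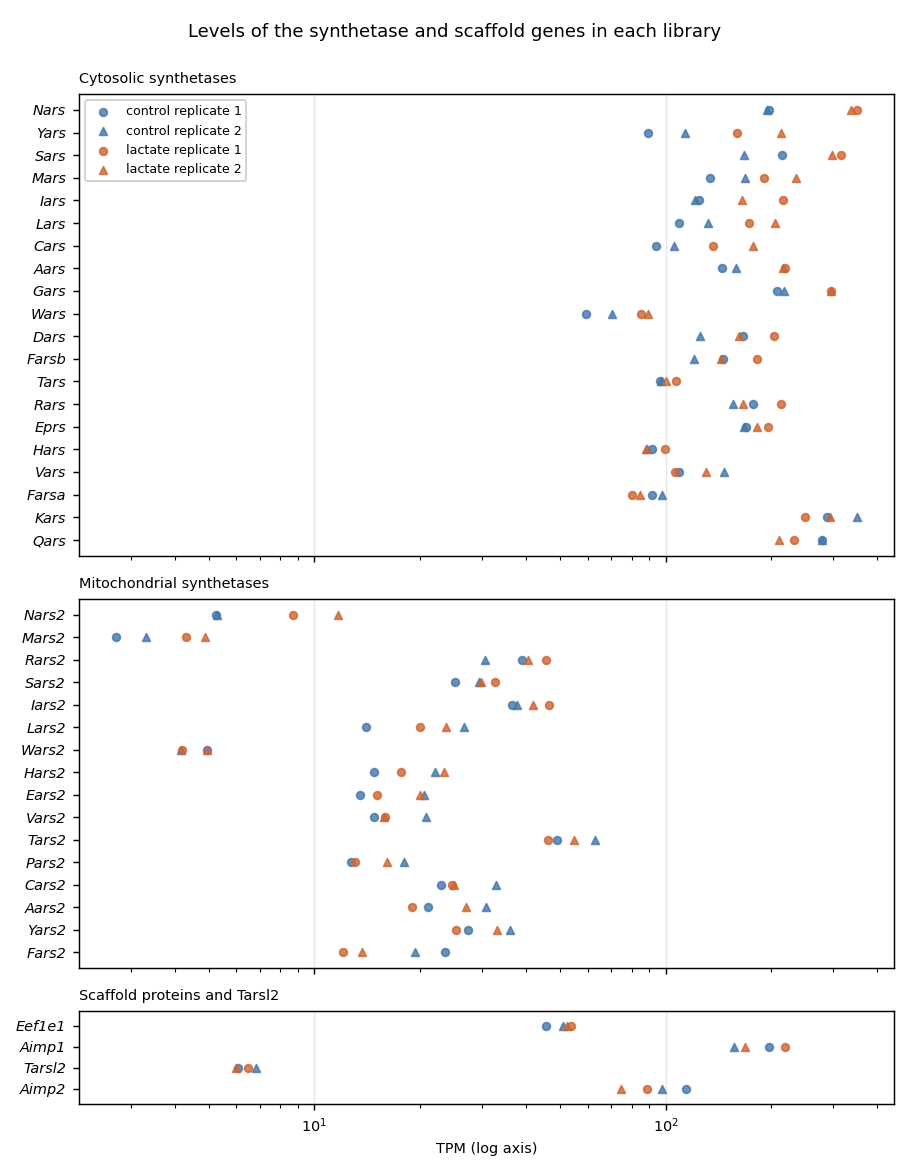
TPM of the genes in each of the 4 libraries on a log axis, with control in blue, lactate in orange, circles for replicate 1 and triangles for replicate 2, and genes sorted by their log2 fold change within each class. In the control mean the lowest cytosolic gene, Wars at 64.8 TPM, lies to the right of the highest mitochondrial gene, Tars2 at 55.9 TPM, and the orange points of Nars, Yars and Sars stand apart from the blue ones.

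The promoters were searched for the C/EBP-ATF response element, the site known to bind ATF4 with C/EBP proteins, as the letters TGATGNAA on either strand. The window was 250 bases before to 50 bases after each RefSeq gene start (GRCm38.p6), and 31 of the 41 genes had an entry. Among those with no entry were Cars, Hars, Lars, Nars, Rars, Vars, Wars, Hars2 and Pars2. The letters occurred in 5 of the 13 cytosolic genes with an entry, Aars, Gars, Iars, Tars and Yars. They occurred in 0 of the 14 mitochondrial genes, in 0 of the 3 scaffold genes and not in Tarsl2. Of all 32851 promoters of the table, 3.97% held them. A gene counts here if any of its promoters has a match, whereas that share is over single promoters. The 28 bases around 1 match in each of the 5 genes are printed on the strand of the gene, 5′ to 3′, with the matched letters in capitals. The likeness of the capital letters was fixed by the search. Aars has a second match, which began 112 bases before the start and is not printed.

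Aars at chr8:111033841-111033868: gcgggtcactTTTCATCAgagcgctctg
Gars at chr6:55037961-55037988: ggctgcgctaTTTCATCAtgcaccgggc
Iars at chr13:49682127-49682154: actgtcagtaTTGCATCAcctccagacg
Tars at chr15:11399656-11399683: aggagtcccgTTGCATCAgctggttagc
Yars at chr4:129189896-129189923: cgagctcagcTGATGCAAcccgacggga

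The Tars gene lies on the minus strand and the other 4 on the plus strand. The printed match began 30 bases before the start in Gars and 15 before it in Tars, and at bases 10, 8 and 4 of the transcript in Aars, Iars and Yars.

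The core of the site for NRF1, a transcription factor known for genes of mitochondrial proteins, was searched as CGCATGCG, which reads the same on both strands. It occurred in 2 of the 14 mitochondrial genes, Vars2 and Wars2, and in 0 of the 13 cytosolic genes. Counted over single promoters, 1.87% of all had it. Its places are printed for comparison, with the matched letters in capitals.

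Vars2 at chr17:35667622-35667649: gagtcttttaCGCATGCGcctgcgtgtc
Vars2 at chr17:35667596-35667623: tccccgcccaCGCATGCGcgcgcacctc
Wars2 at chr3:99141017-99141044: agaggacaggCGCATGCGtagtaagcac

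Lactate was compared with control for each gene with edgeR's quasi-likelihood test over 18661 genes, and all 41 genes were among these. The study's rule, applied there with DESeq2, is a change beyond 2-fold together with an adjusted p-value under 0.05. None of the 41 met it in edgeR, where it called 0.552% of all genes tested as higher and 0.348% as lower. None passed the adjusted p-value alone either, against 0.568% of all genes higher and 0.423% lower. At an unadjusted p-value under 0.05, 11 of the 41 were higher and 0 lower, where 11.7% and 11.4% of all genes tested were. Those 11 were the cytosolic genes Nars, Yars, Sars, Mars, Iars, Lars, Cars, Aars and Gars and the mitochondrial genes Nars2 and Mars2. DESeq2, the tool of the study, passed 3 of the 41 as higher at an adjusted p-value under 0.05, Nars, Yars and Sars, and 0 as lower, where it passed 1.85% and 2.65% of all genes. limma on log2 FPKM passed none of the 41 and none of all genes. Leaving out lactate replicate 1, edgeR gave log2 fold changes of 0.83 for Nars, 0.89 for Yars and 0.86 for Sars. Leaving out lactate replicate 2, it gave 0.78, 0.54 and 0.54. In these fits the spread comes from the 2 control libraries, and the single lactate library is assumed to vary as they do.

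By plain order of the libraries, the 2 lactate values exceeded the 2 control values in 18 of the 41 genes, or 43.9%, where 27.0% of all genes tested did so. They were the lower ones in 7 genes, where 25.9% of all genes did. The log2 fold change was above 0 for 27 of the 41, where 51.0% of all genes tested were above 0 and 49.0% below. The cytosolic class made up most of the higher genes: 15 of its 20 members had a log2 fold change above 0, 12 had no overlap in this direction, and the median was 0.29. The mitochondrial class had 10 of 17 above 0, 6 of 17 higher without overlap, and a median of 0.05, close to the 0.01 of all genes tested, and the median was -0.13 without control replicate 1. These counts and medians are descriptions, since the genes of a class are not replicates, and the difference between the classes was not tested.

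**Figure D2:**
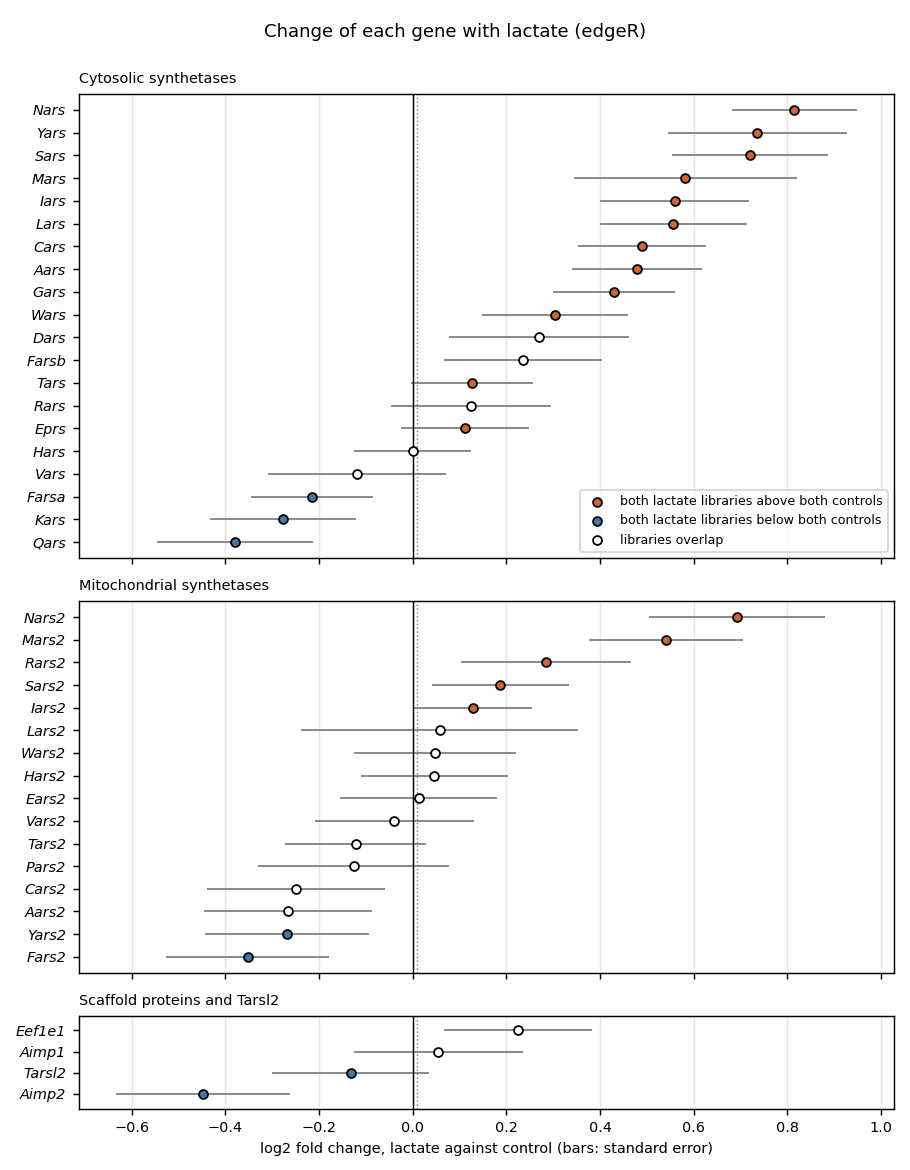
log2 fold change of lactate against control for each gene from edgeR, with its standard error as the bar, in the 3 panels of cytosolic synthetases, mitochondrial synthetases, and scaffold proteins with Tarsl2. Orange points mark genes whose 2 lactate libraries both lie above both control libraries, blue points those that lie below, and white points those that overlap, and the dotted line is the median of all genes tested at 0.01. The cytosolic panel reaches from -0.38 for Qars to 0.82 for Nars.

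Among the cytosolic enzymes outside the multisynthetase complex, Nars, which charges asparagine, had the largest difference of all 41 genes. Nars on chromosome 18 had 319.6 and 308.8 CPM (counts relative to the library's size, normalized by TMM) in the control libraries and 540.0 and 565.6 CPM with lactate. Both lactate libraries stood far above both controls, and libraries of a group were close to each other. Group means were 314 ± 7.6 CPM in control and 553 ± 18 CPM with lactate (SD, n = 2). The log2 fold change was 0.82 ± 0.13 (standard error), and edgeR's adjusted p was 0.052. The adjusted p was 0.0016 in DESeq2, and it ranged from 0.0016 to 0.24 over the alternatives without a replicate block. No exon of Nars is shared with another gene in GENCODE release M21.

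Yars, the tyrosyl-tRNA synthetase gene on chromosome 4 (GRCm38, 129189760 to 129219607), had 149 and 189 CPM in control cells and 245 and 318 CPM with lactate. The groups did not overlap, but replicate 2 was higher than replicate 1 in each. Its log2 fold change was 0.74 ± 0.19 (standard error), with an adjusted p of 0.10 by edgeR and 0.026 by DESeq2 and a range from 0.010 to 0.33 over these alternatives. Sars, the seryl-tRNA synthetase gene on chromosome 3 (108424865 to 108445209), had 168 and 188 CPM in control cells and 258 and 328 CPM with lactate. Here too the lactate libraries were both higher. Its log2 fold change was 0.72 ± 0.17 (standard error), with an adjusted p of 0.081 by edgeR and 0.019 by DESeq2 and a range from 0.014 to 0.29 over them. Sars also puts serine on the selenocysteine tRNA, the first step of making selenocysteine.

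The other enzymes outside the complex spread from moderately higher to lower. Cars (cysteine) had 148 and 160.3 CPM in control cells and 205 and 229 CPM with lactate, and Aars (alanine) had 521 and 557 CPM in control cells and 741 and 762 CPM with lactate. Neither gene had overlapping groups, and the log2 fold changes were 0.49 and 0.48, each with a standard error of 0.14. Aars shares 15.1% of its exon bases with Exosc6 and Gm24103, and on the RSEM expected counts, which assign reads differently, its log2 fold change was 0.45. Gars had 322 and 327 CPM in control cells and 433 and 441 CPM with lactate, giving a log2 fold change of 0.43 ± 0.13 (standard error) at an adjusted p of 0.13 by edgeR. Its libraries were close to each other within each group. Wars had a log2 fold change of 0.30, Farsb, the beta subunit for phenylalanine, of 0.23, and Tars (threonine) of 0.13. Hars (histidine) had nearly the same level in both groups, with 108.4 and 104.0 CPM in control cells and 108.4 and 103.9 CPM with lactate. Vars (valine) had -0.12 with overlapping groups, and Farsa, the alpha subunit for phenylalanine, had -0.22 with both lactate libraries lower. The 2 subunits of phenylalanyl-tRNA synthetase, which work as 1 enzyme, thus had log2 fold changes of opposite sign, neither of which passed the test.

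The 8 synthetases of the multisynthetase complex had a median log2 fold change of 0.20, against 0.37 for the 12 other cytosolic genes. In 4 of the 8, both lactate libraries were higher, and in 2 both were lower, beside 27.0% and 25.9% of all genes tested. Mars, for methionine, which also starts every protein, had 159.7 and 225 CPM in control cells and 238 and 338 CPM with lactate. Its standard error was the largest among the cytosolic genes, and lactate replicate 1 stood only slightly above control replicate 2. The log2 fold change was 0.58 ± 0.24 (standard error) at an adjusted p of 0.21 by edgeR, and dropping 1 library at a time gave 0.31 to 0.85. Mars lies on chromosome 10 (127296221 to 127311786) beside Ddit3 and shares 1.99% of its exon bases with that gene. Ddit3 itself is listed under 2 identifiers, which had log2 fold changes of 1.33 and 1.71, and whether counting used strand is not given in the sources used here. On the RSEM expected counts the log2 fold change of Mars was 0.54.

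Iars, for isoleucine, had 353 and 322 CPM in control cells and 548 and 447 CPM with lactate, giving a log2 fold change of 0.56 ± 0.16 (standard error) at an adjusted p of 0.12 by edgeR. Lars, for leucine, had 238 and 274 CPM in control cells and 346 and 407 CPM with lactate, and its log2 fold change was 0.56 ± 0.16 (standard error) as well. In both genes the lactate libraries were higher without overlap. Dars (aspartate), Rars (arginine) and Eprs, whose single protein charges both glutamate and proline, had 0.27, 0.12 and 0.11. Only Eprs among these 3 had no overlap between the groups.

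Kars and Qars, the 2 most abundant synthetase genes per length in control cells, were the lowest of the class by log2 fold change. Qars, for glutamine, had 197 and 242 CPM in control cells and 154 and 184 CPM with lactate, giving a log2 fold change of -0.38 ± 0.17 (standard error) at an adjusted p of 0.24 by edgeR. Kars had 367 and 425 CPM in control cells and 302 and 352 CPM with lactate, giving a log2 fold change of -0.28 ± 0.16 (standard error) at an adjusted p of 0.34 by edgeR. On CPM, both lactate libraries of each gene were below both controls, with replicate 2 above replicate 1 in each group. On TPM the groups of Kars overlapped, with 287.81 and 351.01 in control cells and 249.34 and 293.14 with lactate. Neither gene passed the test.

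The scaffold proteins of the complex differed among themselves. Aimp2 on chromosome 5, which holds the complex together, had 60.8 and 48.4 CPM in control cells and 44.9 and 35.1 CPM with lactate. The lactate libraries were both lower, and the log2 fold change was -0.45 ± 0.19 (standard error) at an adjusted p of 0.22 by edgeR. Aimp2 shares 29.4% of its exon bases with Eif2ak1, and its log2 fold change on the RSEM expected counts was -0.48. Aimp1 had 115 and 90.8 CPM in control cells and 119 and 95.1 CPM with lactate, and Eef1e1 had 65.5 and 53.1 CPM in control cells and 73.5 and 64.9 CPM with lactate. Groups overlapped in both genes, with log2 fold changes of 0.05 and 0.22. Tarsl2 had 12.6 and 13.2 CPM in control cells and 12.3 and 11.3 CPM with lactate, lower in both. On TPM its groups overlapped, with 6.06 and 6.84 in control cells and 6.47 and 5.97 with lactate. The log2 fold change of Tarsl2 was only -0.13, smaller in size than its standard error of 0.17.

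By structural class, the 9 cytosolic genes of class I, which share a Rossmann fold in the catalytic domain, had a median log2 fold change of 0.49 and the 10 of class II had 0.25. Eprs, which joins an enzyme of each class, is in neither count. In the mitochondrial set, the medians were 0.05 for the 9 class I genes and -0.04 for the 8 class II genes. Members of class I and class II were found among both the higher and the lower genes.

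Of the mitochondrial synthetases, Nars2 and Mars2 had the largest differences, and they are the counterparts of Nars and Mars. Nars2 on chromosome 7 (96951505 to 97064758) had 12.2 and 12.9 CPM in control cells and 17.8 and 22.8 CPM with lactate. Both lactate libraries were higher, with more spread between them than between the controls. The log2 fold change was 0.69 ± 0.19 (standard error) at an adjusted p of 0.11 by edgeR. Mars2 on chromosome 1 (55237177 to 55248470) had 21.97 and 25.4 CPM in control cells and 31.8 and 37.2 CPM with lactate, giving a log2 fold change of 0.54 ± 0.16 (standard error) at an adjusted p of 0.13 by edgeR. It too had no overlap between the groups.

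The other mitochondrial genes had log2 fold changes between -0.35 and 0.28. Rars2 (arginine) had 50.1 and 36.9 CPM in control cells and 55.8 and 50.1 CPM with lactate, giving a log2 fold change of 0.28 ± 0.18 (standard error), and its lowest lactate value was barely above its highest control value. Sars2 (serine) and Iars2 (isoleucine) also had both lactate libraries higher, at 0.19 and 0.13. Lars2 (leucine) was the least reproducible of the 41 genes, with 61.9 and 120 CPM in control cells and 91.8 and 97.7 CPM with lactate, so that its log2 fold change of 0.06 had a standard error of 0.30. Without control replicate 1 it was -0.35. Wars2, Hars2, Ears2 and Vars2 lay within 0.05 of 0 on the log2 scale, and Tars2 and Pars2 (proline) had -0.12 and -0.13.

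At the lower end, Fars2, for phenylalanine, had 14.3 and 15.7 CPM in control cells and 10.9 and 12.6 CPM with lactate, giving a log2 fold change of -0.35 ± 0.17 (standard error) at an adjusted p of 0.29 by edgeR. It shares 10.7% of its exon bases with Lyrm4 and Nrn1. Yars2, for tyrosine, had 30.3 and 35.1 CPM in control cells and 24.2 and 30.1 CPM with lactate, giving a log2 fold change of -0.27 ± 0.17 (standard error). In both genes the groups did not overlap on CPM, though lactate replicate 2 of Yars2 was next to control replicate 1. On TPM the groups of Yars2 overlapped, with 27.43 and 36.1 in control cells and 25.31 and 33.17 with lactate. Aars2 and Cars2 had -0.27 and -0.25 with overlapping groups. None of these 4 passed the test.

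Cytosolic genes with a mitochondrial counterpart were then set against it in the same library, as the log2 ratio of their CPM. This ratio removes any shift common to a library. Kars, Gars and Qars, with log2 fold changes of -0.28, 0.43 and -0.38, have no such counterpart and are in no pair. There are 18 such pairs, of which 2 use Eprs and 2 use Fars2. With 2 libraries against 2 no two-sided permutation test can give a p-value below 0.333, so the ratios were not tested. The ratio was higher with lactate in 15 of the 18 pairs, with a median difference of 0.24, which was 0.13 without control replicate 2. As ratios of the RSEM TPM, the lactate mean was above the control mean in 13 of the pairs and below it in 5. On CPM, both lactate libraries were above both controls in 7 pairs, below in 0, and the groups overlapped in 11. Of the 7 pairs, 2 share Fars2. No share over other pairs of genes was computed to set beside these counts.

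The widest difference was that of tyrosine, where the cytosolic and the mitochondrial gene differed from control in opposite directions. The log2 ratio of Yars to Yars2 was 2.30 and 2.43 in control cells and 3.34 and 3.40 with lactate, a difference of 1.01. The ratio of their TPM was 3.21 in the control mean and 6.38 in the lactate mean. For alanine, the log2 ratio of Aars to Aars2 was 3.31 and 3.07 in control cells and 4.07 and 3.80 with lactate, a difference of 0.74. For cysteine, that of Cars to Cars2 was 2.47 and 2.13 in control cells and 2.99 and 3.05 with lactate, a difference of 0.72. In these pairs and in Farsb with Fars2 (0.59), Sars with Sars2 (0.52), Iars with Iars2 (0.42) and Farsa with Fars2 (0.14), no lactate ratio fell within the range of the controls.

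The asparagine and methionine pairs, by contrast, had higher genes in both compartments and little difference in ratio. The log2 ratio of Nars to Nars2 was 4.71 and 4.58 in control cells and 4.93 and 4.63 with lactate, a difference of 0.13, and that of Mars to Mars2 differed by 0.04. Their mean TPM ratios were lower with lactate, 37.2 in control cells and 34.7 with lactate for asparagine and 49.9 and 46.2 for methionine. The histidine, valine and arginine pairs had differences of -0.04, -0.09 and -0.18 and overlapped.

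**Figure D3:**
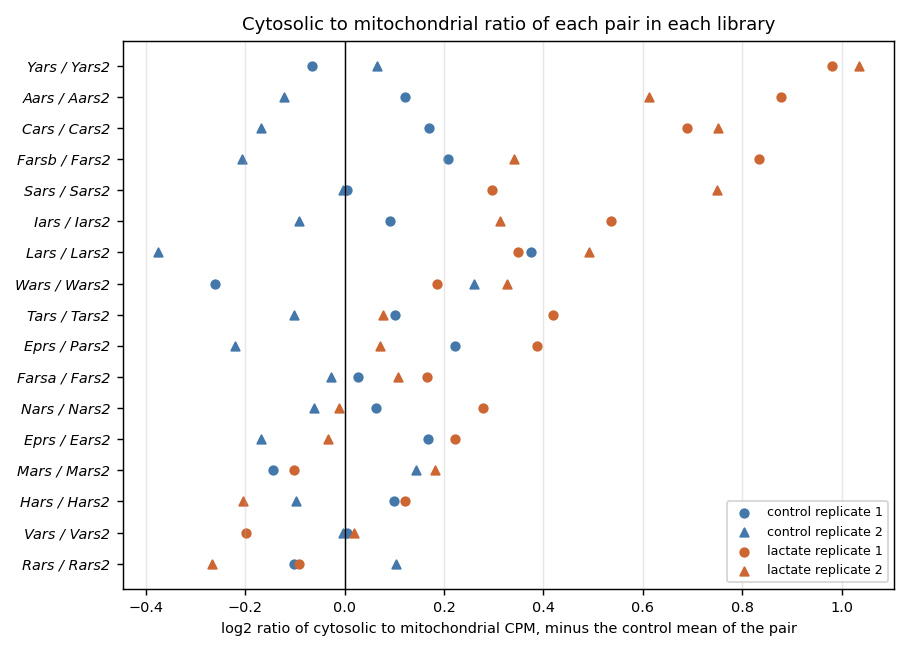
log2 ratio of cytosolic to mitochondrial CPM for the pairs shown in each library, with the mean of the 2 control libraries of the pair set to 0. Control points are blue and lactate points orange, with circles for replicate 1 and triangles for replicate 2, and the lactate points of Yars with Yars2 lie near 1 while those of Rars with Rars2 lie below 0.

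Summed over the 20 cytosolic genes, the level was 2988 and 3078 TPM in the control libraries and 3814 and 3795 TPM with lactate. The mean was 3033 ± 63.8 TPM in control cells and 3804 ± 13.1 TPM with lactate (SD, n = 2), and the lactate libraries stood apart from the controls. The 17 mitochondrial genes summed to 346.0 and 424.9 TPM in control cells and 380.0 and 423.3 TPM with lactate, which overlap. The ratio of the sums was 7.94 ± 0.98 in control cells and 9.50 ± 0.76 with lactate (SD, n = 2), with the lower lactate ratio of 8.97 above the higher control ratio of 8.63 by little. On the log2 scale the ratio differed by 0.26, and by 0.14 without control replicate 2. On CPM per kilobase after TMM normalization, a scale that is not bound to a fixed total, the cytosolic sum was 2281 and 2270 in control cells and 2740 and 2765 in the lactate libraries.

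**Figure D4:**
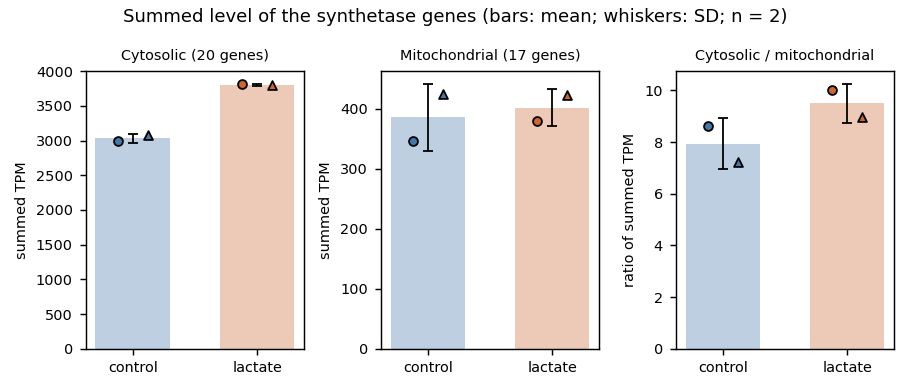
Summed TPM of the 20 cytosolic and the 17 mitochondrial synthetase genes and the ratio of the sums, with bars for the mean, whiskers for the SD (n = 2) and points for each library (circles, replicate 1, and triangles, replicate 2). The cytosolic sum is higher in both lactate libraries, whereas the mitochondrial sums of the groups overlap.

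The 5 cytosolic genes with the C/EBP-ATF letters in their promoters, Aars, Gars, Iars, Tars and Yars, had a median log2 fold change of 0.48 and a range of 0.13 to 0.74, and the 8 without them had a median of 0.17 and a range of -0.38 to 0.72. Sars and Mars are among those without a match. Cytosolic genes with no promoter entry are in neither group. They are Nars (0.82), Lars (0.56), Cars (0.49), Wars (0.30), Rars (0.12), Hars (-0.00023) and Vars (-0.12). A match is not a shown binding site, and these medians were not tested. Vars2 and Wars2, which have the NRF1 letters, had log2 fold changes of -0.04 and 0.05.

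Some of the genes are neighbours. Hars and Hars2 on chromosome 18 lie head to head and overlap by 0.198 kb, and had log2 fold changes of -0.00023 and 0.05. Iars2 (chromosome 1, 185284726 to 185329396) and Eprs (185363044 to 185428360) are 33.6 kb apart and point away from each other, with 0.13 and 0.11. Aars and Kars lie 936 kb apart on chromosome 8, with 0.48 and -0.28.

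Other genes of tRNA charging were given by fixed lists. Of 16 genes for accessory and indirect charging, 0 passed the adjusted p-value in edgeR, 3 were higher and 0 lower at an unadjusted p-value under 0.05 (11.7% and 11.4% of all genes), and the median log2 fold change was 0.12. Sepsecs and Pstk, which together turn seryl-tRNA into selenocysteinyl-tRNA, had 0.87 (standard error 0.19, adjusted p-value 0.071 from edgeR) and 0.45. Sepsecs was the only gene of the list that passed in DESeq2, which passed 1.85% of all genes as higher. Dtd1, which removes D-amino acids from tRNA, had 0.45, and Aarsd1, an alanyl-tRNA editing protein, had -0.36. Gatb, Gatc and Qrsl1, the subunits of the amidotransferase that makes mitochondrial glutaminyl-tRNA, had -0.10, 0.0006 and 0.17.

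Of 24 genes for tRNA maturation and export, 0 passed in edgeR or DESeq2, 5 were higher and 0 lower at an unadjusted p-value under 0.05 (11.7% and 11.4% of all genes), and the median was 0.02. The largest log2 fold changes were those of the tRNA methyltransferase genes Trdmt1 (0.80) and Mettl1 (0.65), of Elac1 (0.74), an endonuclease of the tRNA 3′ end, and of Tsen15 (0.59), a subunit of the splicing endonuclease. The 6 genes for cytosolic elongation had a median of -0.12 and a range of -0.20 to 0.07, and 0 passed in edgeR or DESeq2, with 0 in edgeR at an unadjusted p-value under 0.05.

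Of the 11 listed mitochondrial translation factors, 10 were matched by symbol, and 1 of them, Tufm, the mitochondrial elongation factor that carries charged tRNA to the ribosome, fell. It had 130.6 and 137.9 CPM in control cells and 67.1 and 73.4 CPM with lactate, giving a log2 fold change of -0.93 ± 0.13 (standard error) at an adjusted p of 0.0467 by edgeR. That is just under a 2-fold change, and on the RSEM expected counts no gene of the list passed. Guf1 had 0.52 and Gfm1 -0.45. Of 78 mitochondrial ribosomal protein genes, 55 had a log2 fold change below 0 (49.0% of all genes tested), 27 had both lactate libraries lower (25.9% of all genes) and 4 both higher (27.0%), and the median was -0.14. None passed in edgeR, and 11 were lower and 0 higher at an unadjusted p-value under 0.05 (11.4% and 11.7% of all genes). DESeq2 passed 2 as lower (2.65% of all genes), Mrpl14 and Mrps12 (log2 fold changes of -1.18 and -0.85).

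Genes known to be raised with ATF4 had the largest median of the lists. Their list of 20 symbols has 21 identifiers, since Ddit3 has 2. All 21 had a log2 fold change above 0 (51.0% of all genes tested), with a median of 1.00. In edgeR 10 were called as higher with more than 2-fold (0.552% of all genes), and 13 passed as higher in DESeq2 (1.85% of all genes). Both counts include the 2 identifiers of Ddit3. The 4 largest were Chac1 (4.10), a glutathione-degrading enzyme, Slc7a11 (3.20), the cystine transporter, Atf3 (2.49) and Nupr1 (2.18). Control levels were low for Slc7a11 (0.64 and 0.58 CPM), Atf3 (1.97 and 2.90 CPM) and Chac1 (3.18 and 3.85 CPM). At the lower end, Eif4ebp1 had 0.37, and Atf5 (0.13) and Ddit4 (0.49) had overlapping groups. Atf4 itself had 1.00 ± 0.21 (standard error, adjusted p of 0.069 by edgeR), and Asns, asparagine synthetase, which makes an amino acid that Nars uses, had 0.54. The largest log2 fold change among the synthetases, 0.82 for Nars, was below the median of this list.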

How the data were processed

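Libraries of AB2.2 ESCs, 2 control and 2 with lactate, were compared. Per the submitters' processing notes and the study's methods, the authors used cutadapt 1.16, STAR and GENCODE exons, and the deposited raw counts are not normalized. The authors also deposited expected counts, TPM and FPKM made with RSEM. Whether counting used strand is not given in the sources used here. Positions come from GENCODE M21 (GRCm38). Transposable elements in the count table were left out.

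The raw counts went into edgeR 4.0.16 (R 4.3.3) with filterByExpr, TMM and the legacy quasi-likelihood test with no replicate term, adjusted by Benjamini-Hochberg over 18661 genes. Standard errors are the absolute log2 fold change over the square root of F, and pair ratios used a prior count of 0.5. The alternatives were DESeq2 1.42.0, RLE size factors, scaling by totals, 2 other filters (any count above 0, or 10 counts in all libraries), a replicate block, rounded RSEM counts, limma-trend 3.58.1 on log2(FPKM + 1) or log2(FPKM + 0.1) for genes of mean FPKM over 0.1, and leaving out each library. For medians, sums and ratios they were also leaving out Kars and Gars, every name ending in 2, genes over 10 TPM, CPM per kilobase, log2(TPM + 1) and log2(TPM + 0.1). Tests were tried on simulated data. Replicates differed beyond sampling noise (chi-square over degrees of freedom of 32.2 in control and 31.4 with lactate).

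The members and lists were chosen with earlier results of these data known. Values of every library were given for genes past an adjusted p-value of 0.05 in edgeR or DESeq2, for the 5 cytosolic and 5 mitochondrial genes with the largest absolute log2 fold change, and for the scaffold genes, Tarsl2, Kars and Gars. From the lists, called genes and up to 4 with the largest values were to be named. Gatb, Gatc, Qrsl1, Atf4, Asns, Atf5, Ddit4 and Eif4ebp1, single markers of cell types, and the library values of further synthetase genes, were added after their values were seen. The single values of 1 mitochondrial gene, which is in the counts, medians and sums, are not reported here and are not drawn.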

Additional observations from a re-analysis of the deposited data

How the results depend on the processing

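None of the 41 genes was both past an adjusted p-value of 0.05 and changed more than 2-fold under any alternative. At the adjusted p-value alone, where edgeR passed 0, DESeq2 and edgeR without the filter on low counts each passed 3 as higher (Nars, Sars and Yars in both). Of all genes tested, DESeq2 passed 1.85% as higher and 2.65% as lower, and edgeR without the filter passed 2.11% and 2.89%. Leaving out 1 library assumes that the single library left in its group varies like the other group, so effect sizes alone follow. The log2 fold change then ranged from 0.78 to 0.83 for Nars, 0.54 to 0.86 for Sars and 0.54 to 0.92 for Yars. For Mars and Nars2 it ranged from 0.31 to 0.85 and from 0.50 to 0.84. The other alternatives with every library kept, outside the replicate block, passed none.

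The libraries of the groups share replicate numbers, and deviations of same-numbered libraries from their group means correlated (r = 0.52 over 18661 genes), but nothing in the labels says what a number marks. With a replicate block, edgeR passed 17 of the 41 as higher and 8 as lower, 61.0%, where it passed 44.5% of all genes tested (0.991% without the block). Of the 20 cytosolic genes 12 were higher and 3 lower, and of the 17 mitochondrial genes 4 were higher and 4 lower. With the block, the lists passed as follows: accessory charging 5 higher and 1 lower of 16, tRNA maturation 8 and 9 of 24, and elongation 2 lower of 6. Mitochondrial translation factors passed 1 higher and 2 lower of 10, mitochondrial ribosomal proteins 5 and 32 of 78, and genes raised with ATF4 20 higher of 21. Without the block, DESeq2 passed 1 accessory gene as higher (1.85% of all genes) and 2 mitochondrial ribosomal protein genes as lower (2.65%), where edgeR passed 0 of each. On RSEM expected counts the count of lower mitochondrial translation factors went from 1 to 0.

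The median log2 fold change of the cytosolic genes was 0.24 to 0.38 under every alternative. That of the mitochondrial genes, 0.05, moved to between -0.13 and 0.12 when 1 library was left out, with -0.13 without control replicate 1 -0.086 without lactate replicate 2, and it was -0.013 over the genes above 10 TPM in control cells. The log2 ratio of the summed levels, 0.26, was 0.14 without control replicate 2 and 0.39 without control replicate 1, and the median pair difference, 0.24, was 0.13 and 0.34 without these libraries.

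Direction held under all 13 alternatives for 31 genes and turned under at least 1 for 10, all with a small log2 fold change. Hars turned to 0.067 with library totals alone, to 0.012 with at least 10 counts, and to 0.056 with both FPKM fits. Vars2 turned to 0.026 with library totals alone and with RSEM counts. Ears2 turned to -0.031 without the filter and -0.013 with RSEM counts, and Wars2 to -0.028 with RSEM counts. When 1 library was left out, log2 fold changes ranged from -0.051 to 0.031 for Hars, -0.070 to 0.28 for Rars, -0.31 to 0.068 for Vars, -0.13 to 0.17 for Ears2, -0.092 to 0.15 for Hars2, -0.35 to 0.61 for Lars2, -0.32 to 0.088 for Pars2, -0.21 to 0.15 for Vars2, -0.072 to 0.17 for Wars2 and -0.13 to 0.23 for Aimp1. The cause of these turns was not tested. Library totals alone moved the median of all genes from 0.01 to 0.08.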
